A study of Mus musculus with 5 samples.

Results

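Immediate early and heat shock genes were followed by cell type in single cells of mouse cortex. The set held 34 of the 55450 genes in the deposited matrices, found by their symbols: 22 immediate early genes and 12 heat shock and chaperone genes. Cortex of C57BL/6J mice was dissociated with papain and DNase, cleared of debris on Percoll and loaded on the 10x Chromium platform, 1 library from sham mice and 1 from mice with traumatic brain injury (TBI) at each of days 1, 3, 7 and 14. The titles of the 4 injured libraries name the injury site and that of sham names no site. The sources used here do not state the age, the sex or the number of mice, the kind of injury, or whether animals were pooled. With 1 library per group no test was possible, so each comparison is between libraries, and every interval is a 95% range from counting error alone.

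Immediate early genes are switched on within minutes of a stimulus from factors already present in the cell, and their messages are short-lived. Heat shock genes are driven by heat shock factor when proteins unfold, and encode chaperones that refold or hold them. Both groups are known to be set off by enzymatic dissociation of brain tissue, in microglia above all, and both also answer injury in living tissue, so levels in sorted or dissociated cells can carry either source. Which of them contributed here was not tested: no library prepared with a transcription inhibitor or from nuclei was used.

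Cells were grouped by marker genes after clustering that left the 34 genes out. The microglia/macrophage class held 4493, 4051, 3867, 5684 and 6073 cells from sham to day 14, nearly all microglia-like in sham (4471 cells) and with 1058 monocyte/macrophage-like cells at day 14. Astrocyte-like cells numbered 4170, 4537, 2065, 1495 and 230, and oligodendrocyte-like cells 1241, 1284, 383, 1754 and 2039. Neural progenitor or neuroblast-like cells (316 in sham), endothelial-like cells (83) and oligodendrocyte precursor-like cells (55) were the other classes with at least 50 cells in sham. Levels are counts of unique molecular identifiers (UMIs) summed over a class and given per 1000000 UMIs of that class (CPM). Depth rose with the day: the median was 773 UMIs per barcode in sham and 8558 at day 14, so depth and day cannot be told apart, and the libraries shared 27 to 59 barcodes per pair, at most 0.483% of the smaller one.

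The inducible heat shock genes are shown first by sequence, since they gave the largest ratios below and their promoters are known to carry heat shock elements, arrays of the unit GAA and its reverse TTC. Capitals mark matches to GAANNTTC or TTCNNGAA in Hspa1a, Hspa1b and Hspb1, to the longer GAANNTTCNNGAA or TTCNNGAANNTTC in Hspe1, and to the cyclic AMP response element TGACGTCA in Dusp1. The stretches come from RefSeq on GRCm38.p6 and are written 5′ to 3′ on the gene's strand. They lie at chr17:34972187-34972306 (minus strand, upstream of Hspa1a), chr17:34959269-34959388 (minus, Hspa1b), chr5:135887769-135887858 (plus, Hspb1), chr1:55088053-55088082 (plus, Hspe1, inside an exon of the divergent neighbour Hspd1) and chr17:26508573-26508652 (minus, Dusp1).
Hspa1a: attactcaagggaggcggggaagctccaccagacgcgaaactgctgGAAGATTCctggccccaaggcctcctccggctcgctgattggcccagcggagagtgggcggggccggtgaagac
Hspa1b: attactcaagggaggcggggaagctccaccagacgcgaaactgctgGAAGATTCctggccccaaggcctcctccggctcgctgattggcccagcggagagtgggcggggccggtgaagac
Hspb1: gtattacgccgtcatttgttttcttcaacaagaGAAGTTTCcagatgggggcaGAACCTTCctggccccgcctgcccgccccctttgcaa
Hspe1: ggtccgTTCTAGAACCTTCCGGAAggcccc
Dusp1: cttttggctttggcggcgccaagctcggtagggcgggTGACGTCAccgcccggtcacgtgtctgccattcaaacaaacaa
The printed 120 bases of Hspa1a and Hspa1b were identical, and their full 250 upstream bases differed at 3 positions. Promoters of 28 of the 34 members were matched, with Egr1, Egr3, Ier2, Hspa8, Hsp90aa1 and Hsp90ab1 unmatched. Searched on both strands over the 250 bases upstream, the 8-letter form was present in 7 of 9 heat shock and chaperone members (Hspa1a, Hspa1b, Hspb1, Hsph1, Dnaja1, Hspd1 and Hspe1) and in 3 of 19 immediate early members (Egr2, Fosl2 and Jun), against 14.6% of 27018 genes. The 13-letter form was present in Hspd1 and Hspe1, which share a promoter region, and in 0.514% of genes. Of the 6 inducible heat shock genes, Dnajb1 and Bag3 had neither form. TGACGTCA was present in Btg2 and Dusp1 and in 1.77% of genes. The AP-1 site TGANTCA was present in Bag3 and in 7.82% of genes, and the CArG box bound by serum response factor in Egr2 and Zfp36 and in 1.62%. A match is a string of letters and was not tied to binding in these data. The 8-letter form lies within the 13-letter one, so the same bases can count for both.

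In sham, 24 of the 29 members measured over the 6 classes had their highest level in microglia/macrophages, against 15.1% of all measured genes. Fosl2, Egr2, Egr3, Dusp2 and Bag3, too low to count as measured, were also highest there. These cells supplied 38.2% of all sham UMIs but 89.9% of the immediate early UMIs, 87.5% (87.1 to 87.9) of the UMIs of the 6 inducible heat shock genes and 58.6% (58.2 to 58.9) of those of the 6 abundant chaperones. The exceptions were Hspb1, Hsp90ab1 and Dnaja1, highest in endothelial-like cells, and Hsph1 and Hspd1, highest in oligodendrocyte precursor-like cells. Hspb1, a small heat shock protein that holds unfolding clients, was at 1352.5 CPM in endothelial-like cells and 223 CPM in microglia/macrophages, while Hsp90ab1 and Dnaja1 were at 104.5% (92.9 to 117) and 101.97% (80.5 to 128) of the microglia/macrophage level, intervals that include equality. The precursor-like values rested on 15 UMIs of Hsph1 and 31 of Hspd1. Of the same 29 members, 2 were present in every class by a rule that the lowest class hold at least 25% of the highest: the mitochondrial chaperonin pair Hspe1, at 37.1%, and Hspd1, at 25.7%. The same rule was met by 40.3% of all measured genes. The sham immediate early signal was therefore concentrated in 1 class, while the abundant chaperones were spread more evenly.

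**Figure D1:**
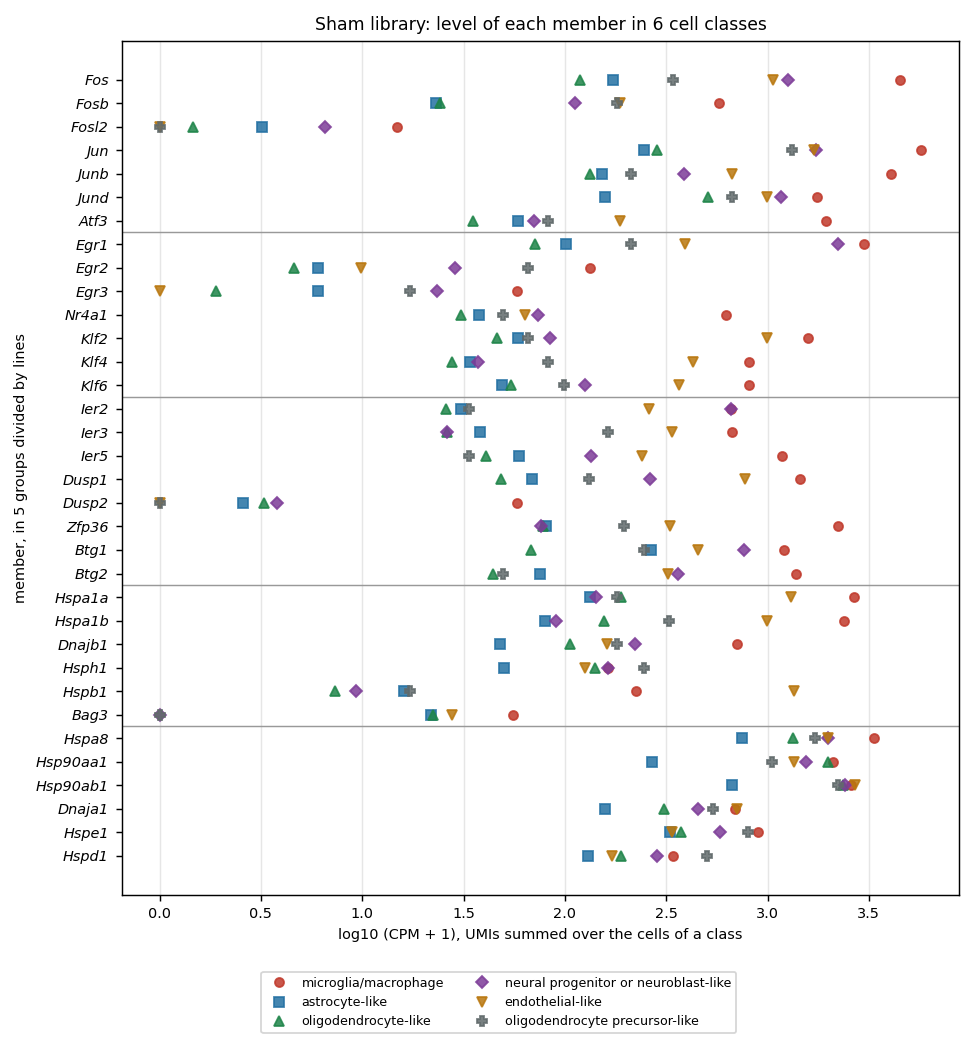
Level of each member in the sham library, as log10 of CPM plus 1 (x axis), for the 34 members in 5 groups (y axis), with 1 symbol per cell class. Microglia/macrophages lie farthest to the right for 29 members, 24 of them measured by the rule on low levels, and the symbols lie closest together for the abundant chaperones at the bottom.

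RNA freed from broken cells gives every class a small share of the genes of the others. No class is known to lack immediate early genes, so 8 genes known from microglia (C1qa, C1qb, C1qc, Ctss, Csf1r, Tmem119, P2ry12 and Cx3cr1) were used as a gauge. In sham astrocyte-like cells these 8 stood at 3.05% to 4.13% of their microglia/macrophage level. The 22 immediate early members stood at a median of 4.38% (2.75% to 21.9%), with 12 of 22 above all 8 gauge genes. In oligodendrocyte-like cells the gauge was 2.09% to 3.00% and the members' median 3.35%, with 16 of 22 above it. Members below, within and above the gauge were thus found in each class, and what part freed RNA had in their levels was not tested. Btg1, an antiproliferative gene, at 21.9% (20.3 to 23.5) in astrocyte-like cells, and Jund, the most steadily expressed Jun gene, at 28.9% (27.1 to 30.8) in oligodendrocyte-like cells, had the highest values. The 12 heat shock and chaperone members had medians of 22.6% in astrocyte-like and 40.8% in oligodendrocyte-like cells, and Hsp90aa1, the stress-inducible HSP90, reached 94.8% (91.3 to 98.4) in the latter.

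In neural progenitor or neuroblast-like and endothelial-like cells most immediate early members also stood above the gauge. The members' medians there were higher than in astrocyte-like and oligodendrocyte-like cells. In progenitors the gauge was 2.72% to 5.71% and the members' median 18.7%, with 16 of 22 above it and the other members, such as Zfp36 at 3.37%, within it. Ier2, an early response gene, was at 656.7 CPM in progenitors and 660.9 CPM in microglia/macrophages, which is 99.4% (86.6 to 113.6), and Egr1, a zinc finger factor driven by neuronal activity, at 2218 and 2986 CPM, or 74.3% (69.0 to 79.8). In endothelial-like cells the gauge was higher, 11.1% to 16.4%, and the members' median was 23.4%, with 14 of 22 above it and Fosl2, Egr3 and Dusp2 at 0 UMIs. Klf2, the factor induced by blood flow in endothelium, was at 63.2% (51.9 to 76.2) there. The 6 inducible heat shock genes summed to 3968 CPM in endothelial-like cells, of which Hspb1 gave 1352.5 CPM. They summed to 6183 CPM in microglia/macrophages and 342 CPM in astrocyte-like cells.

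**Figure D2:**
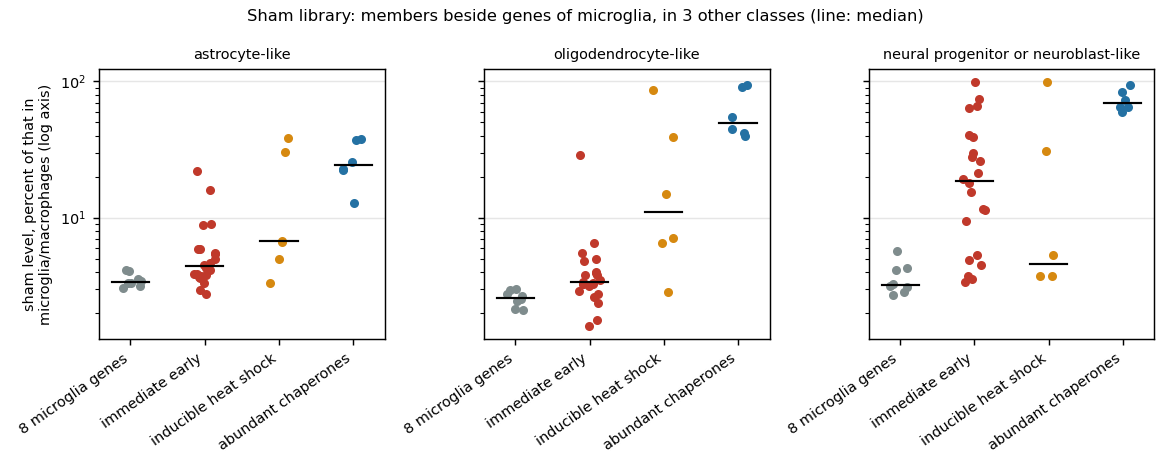
Sham level as percent of that in microglia/macrophages (log axis) in 3 other classes, 1 point per gene, for the 8 microglia genes, the 22 immediate early, 6 inducible heat shock and 6 chaperone members, with the median as a line. Immediate early points lie near the microglia genes in astrocyte-like and oligodendrocyte-like cells (medians 4.38% and 3.35%) and above them in progenitors (18.7%). Bag3, at 0 UMIs in sham progenitors, counts in the median and has no point.

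After injury the levels in microglia/macrophages were lower at every day. The 22 immediate early genes summed to 34422, 20952, 17465, 13832 and 8627 CPM from sham to day 14, and the 6 inducible heat shock genes to 6183, 1818, 419, 421 and 120.2 CPM. The 6 abundant chaperones summed to 9946, 6807, 2329, 2891 and 2762 CPM. The immediate early sum was thus stepwise lower with the day, the inducible heat shock sum was already low by day 3, and the chaperones were lowest at day 3.

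At day 1, 12 of 34 members stood at least 2-fold below sham, against 10.2% of all measured genes, and 1 was at least 2-fold higher, against 7.9%. At day 3, 26 were lower (24.4% of all genes) and 1 higher (10% of all genes). At day 7, 25 were lower (15.1% of all genes) and 0 higher (5.05% of all genes). By day 14, 30 of 34 were lower (26.2% of all genes) and 0 higher (6.7% of all genes). The median log2 ratio of the members was -0.75, -1.39, -1.64 and -2.16 at days 1, 3, 7 and 14, and that of all measured genes -0.06, -0.35, -0.37 and -0.54. CPM is a share of the class total, and scaling by trimmed means (TMM) raised every day 14 ratio by 0.68. Under TMM the counts lower were 9, 17, 20 and 24, and 1, 1, 2 and 0 members were higher.

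**Figure D3:**
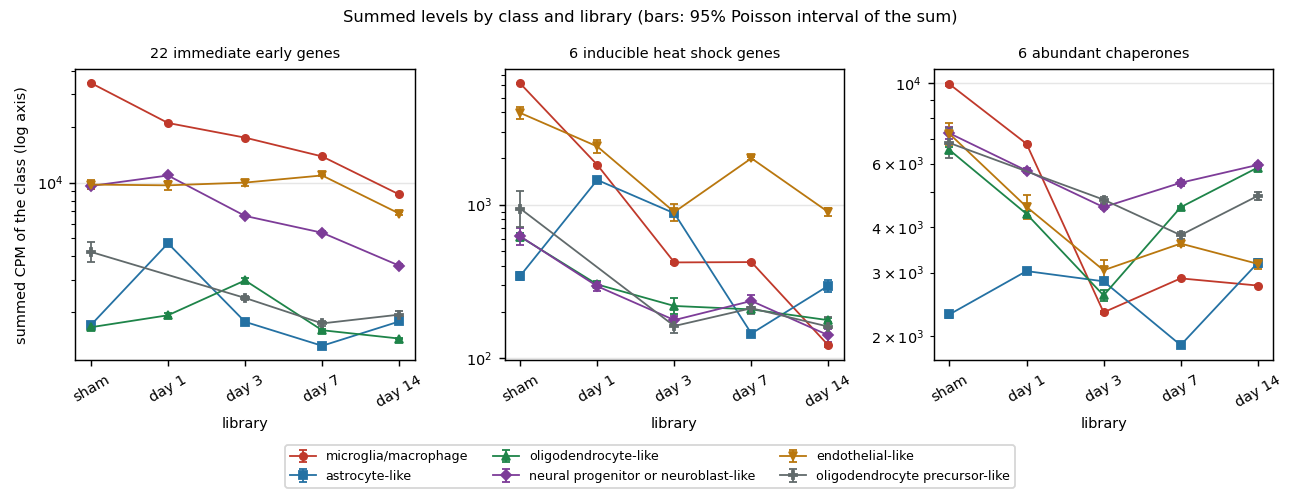
Summed CPM (log axis) of the 22 immediate early, 6 inducible heat shock and 6 chaperone members by library (x axis), with 1 line per class and bars for the 95% Poisson interval of the sum. The microglia/macrophage line runs from 34422 down to 8627 CPM for immediate early genes and from 6183 to 120.2 CPM for inducible heat shock genes, while the astrocyte-like line peaks at day 1.

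The AP-1 factors are the Fos and Jun proteins that pair to bind the site TGANTCA, with the stress-induced partner Atf3. In microglia/macrophages Fos was at 4502 CPM in sham and at 2433, 1908, 762 and 1012 CPM at days 1, 3, 7 and 14. Jun was at 5739.8, 2788, 2769.6, 2997 and 1275 CPM in the same order, and Junb at 4069, 2172, 1585, 1697 and 1070.1 CPM. Sham was highest for all 3 genes, with the lowest value at day 7 for Fos and at day 14 for Jun and Junb. The day 14 log2 ratio was -2.15 (-2.18 to -2.13) for Fos, -2.17 (-2.19 to -2.15) for Jun and -1.93 (-1.95 to -1.90) for Junb. Fosl2, a Fos relative linked to later and longer AP-1 activity, was higher at days 1 and 3, with 13.9, 48.7, 56.2, 21.8 and 16.2 CPM. It was the 1 member at least 2-fold higher at these days, and its day 14 ratio of 0.22 (-0.18 to 0.66) had an interval that includes 0. Fosb, Jund and Atf3 had day 14 log2 ratios of -2.14, -2.31 and -2.69.

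The zinc finger and nuclear receptor factors (Egr1, Egr2, Egr3, Nr4a1, Klf2, Klf4 and Klf6) carry the first signal on to later genes. Egr1 was at 2986 CPM in sham and then at 2176, 915, 1226 and 629 CPM. Klf2, a factor that restrains inflammatory activation of myeloid cells, was at 1577, 414, 446, 342 and 86.1 CPM. Klf6, which promotes inflammatory gene expression in macrophages, was at 813, 821, 1083, 473 and 235 CPM. Egr1 and Klf2 were thus lower in every injured library, and Klf6 was lower only at days 7 and 14 among these libraries. Klf2 was at least 3-fold lower from day 1 on, and its day 14 log2 ratio was -4.20 (-4.25 to -4.14), next to -4.21 (-4.29 to -4.14) for Klf4. All 7 members of the group were at least 2-fold lower at day 14, with a median of -2.25.

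The early response and feedback genes include the RNA-binding protein Zfp36 (tristetraprolin), which destabilises cytokine messages, and the phosphatase Dusp1, which switches off MAP kinases. Zfp36 was at 2229.8 CPM in sham and at 1318, 995, 754 and 747 CPM at days 1, 3, 7 and 14. Dusp1 was at 1449, 1003, 1040.1, 422 and 245 CPM. Btg1 was at 1208, 1402, 1432, 516 and 537 CPM. Zfp36 and Dusp1 were lower in all 4 injured libraries, while Btg1 was above sham at days 1 and 3 and below it later. After Fosl2, the highest day 14 ratios of the 34 members belonged to this group. Ier2 was at 660.9, 486, 311, 482 and 393 CPM, and Btg2 at 1375.5, 843, 544, 1045.5 and 776 CPM, with day 14 log2 ratios of -0.75 (-0.81 to -0.69) and -0.83 (-0.87 to -0.78). Ier3, an inhibitor of stress-induced cell death, had 669.8, 993, 866, 455 and 243 CPM, so it too was above sham at days 1 and 3. Among the 8 genes, 1, 4, 3 and 5 were at least 2-fold lower at days 1, 3, 7 and 14.

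The 6 inducible heat shock genes had the lowest day 14 median of the 5 groups, -5.09. Hspa1a, encoding the inducible HSP70 and located at chr17:34969190-34972156 (minus strand, GRCm38), was at 2664 CPM in sham and at 707, 185, 178 and 37.1 CPM at days 1, 3, 7 and 14. Its neighbour Hspa1b (chr17:34956436-34959238, minus strand), which encodes nearly the same protein, was at 2372, 732, 111, 70.8 and 15.9 CPM. Hspb1 was at 223, 110.1, 31.4, 19.5 and 1.98 CPM. In each of the 3 genes the order was sham, day 1, then the later days. The day 14 log2 ratio was -6.16 (-6.23 to -6.10) for Hspa1a, -7.22 (-7.31 to -7.13) for Hspa1b and -6.81 (-7.08 to -6.56) for Hspb1. The last 400 bases of Hspa1a and Hspa1b shared 0 windows of 60 bases, so 3′ reads can tell the copies apart, whereas 32.4% of the windows of Hspb1 are shared with the pseudogene Hsp25-ps1 and its counts are less certain. Dnajb1, the HSP40 that hands clients to HSP70, had 708, 162, 62.4, 103.7 and 43.6 CPM, and the HSP110 exchange factor Hsph1 had 162, 70.1, 9.72, 27.6 and 10.5 CPM. Bag3, a co-chaperone that links HSP70 to autophagy, ranged from 54.6 CPM in sham to 11.0 CPM at day 14. At day 1 already 5 of the 6 were at least 2-fold lower, and all 6 were at days 3, 7 and 14.

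The 6 abundant chaperones are expressed in unstressed cells as well. Hsp90ab1, the constitutive HSP90, was at 2589 CPM in sham and at 2534, 967, 1158 and 1235 CPM at days 1, 3, 7 and 14. Hspa8, the constitutive HSP70, was at 3338, 2002, 535, 711 and 774 CPM. Hsp90aa1 was at 2096, 1026, 289, 436 and 196 CPM. Hsp90ab1 stood at its sham level at day 1, with a log2 ratio of -0.03 (-0.066 to 0.004) that turned positive under TMM, while the other two were lower from day 1. All 6 were at least 2-fold lower at days 3, 7 and 14, and 1 of 6 at day 1. The day 14 ratios ran from -3.42 (-3.46 to -3.38) for Hsp90aa1 to -1.07 (-1.10 to -1.04) for Hsp90ab1. Retrotransposed copies make several of these counts uncertain: 71.7% of the end windows of Hspa8, 50.7% of Hspe1, 45.8% of Dnaja1, 29.6% of Hspd1 and 27.9% of Hsp90aa1 occur in another annotated gene, as do 15.8% of those of Btg1.

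**Figure D4:**
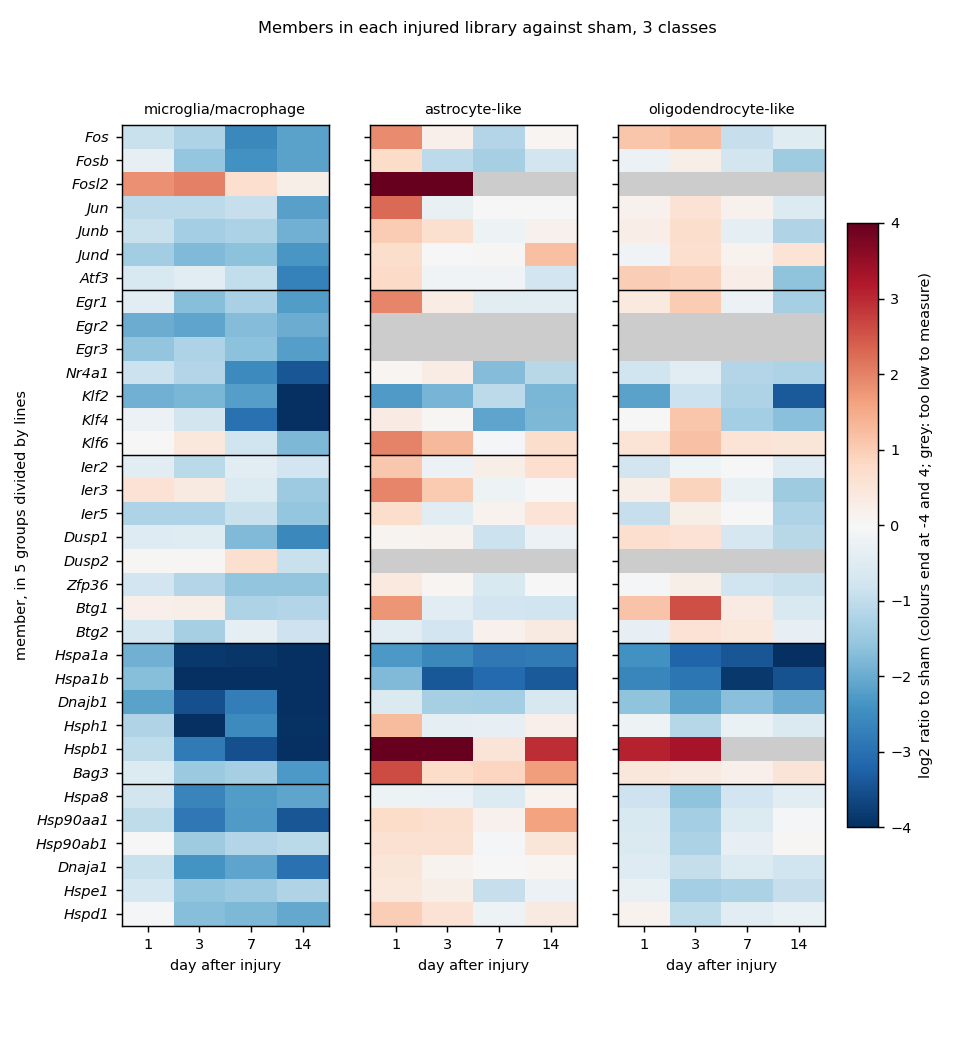
Log2 ratio to sham of each member (y axis, 5 groups) at days 1, 3, 7 and 14 (x axis) in 3 classes, with blue for lower, red for higher and grey for too low to measure; colours end at -4 and 4. The microglia/macrophage panel is blue except for Fosl2 and a few members at days 1 to 7. The astrocyte-like panel is red for 25 of 31 measured members at day 1. Hspa1a and Hspa1b are blue in all 3 panels.

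In astrocyte-like cells the immediate early sum was highest at day 1. The 22 immediate early genes summed to 1705, 4701, 1774, 1317 and 1782 CPM, a log2 ratio of 1.46 at day 1 and of 0.06 (-0.0013 to 0.13) at day 14. At day 1, 12 of 31 measured members were at least 2-fold higher (12.7% of all genes) and 3 at least 2-fold lower (13.9% of all genes). At day 3 the counts were 4 higher (9.68% of all genes) and 5 lower (14.8% of all genes), at day 7 0 higher (4.34% of all genes) and 8 lower (9.87% of all genes), and at day 14 4 higher (15.4% of all genes) and 5 lower (8.43% of all genes). The count of higher members at day 1 and that of lower members at days 7 and 14 were above the share of all genes, while the lower count at day 3 was near it. TMM gave 4 lower and 5 higher at day 3 and 6 lower and 1 higher at day 7. It reversed the sign of 4 members at day 3 (Jund, Atf3, Ier2 and Hspa8), of 8 at day 7 (Jun, Junb, Atf3, Klf6, Ier3, Hsp90ab1, Dnaja1 and Hspd1) and of 7 at day 14 (Fos, Jun, Junb, Zfp36, Hsph1, Hspa8 and Dnaja1).

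All 7 AP-1 members were above sham at day 1 in astrocyte-like cells, 4 of them at least 2-fold. Jun was at 246, 1186, 198, 245 and 249.99 CPM from sham to day 14, and Fos at 171, 631, 198, 75.8 and 179.8 CPM. Day 1 was the high library for both, with log2 ratios of 2.27 (2.16 to 2.38) for Jun and 1.89 (1.76 to 2.02) for Fos, and the day 14 intervals of both include 0. Hspb1 was at 15.1, 1124, 756, 21.6 and 116.9 CPM, the widest range of any member in this class. Its day 1 log2 ratio was 6.21 (5.81 to 6.65), its day 3 ratio 5.64 (5.23 to 6.08) and its day 14 ratio 2.95 (2.49 to 3.44). Bag3 was at 20.8, 125.9, 34.4, 37.8 and 65.9 CPM, and Hsp90aa1 at 268, 442, 415, 304 and 825 CPM. All 3 were thus above sham at day 14, by log2 ratios of 2.95, 1.66 (1.21 to 2.13) and 1.62. Hspa1a was lower after injury, with 131, 26.5, 22.1, 18.0 and 18.6 CPM, as did Hspa1b, with 79.2, 23.3, 7.46, 9.22 and 7.79 CPM, and Klf2, with 57.7, 12.1, 16.0, 28.0 and 16.2 CPM. The astrocyte-like sham levels of Hspa1a, Hspa1b and Klf2 were 4.93%, 3.34% and 3.66% of the microglia/macrophage ones, within or just above the 3.05% to 4.13% of the microglia genes.

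RNA of microglia genes in this class differed between libraries. The 8 gauge genes summed to 3.39%, 1.79%, 2.77%, 5.78% and 5.84% of their microglia/macrophage level from sham to day 14, so it was lowest at day 1, when the immediate early sum was highest. Relative to microglia/macrophages the immediate early members had a day 1 median of 14.3%, against 1.45% to 3.07% for the 8 genes. What part freed RNA had in the values of this class was not tested. Results in this class also depended on doublets. With called doublets kept, the gauge in sham astrocyte-like cells was 13.2%, their immediate early sum 4792 CPM, and the median immediate early log2 ratio -0.22 at day 1 in place of 0.75. The counts lower then became 15, 17 and 17 at days 3, 7 and 14. Cells of at least 1000 UMIs gave 14 lower at day 7 and 12 at day 14, and day 14 rested on 230 cells. At day 7 a low-UMI cluster led by the astrocyte genes Aldoc, Mt3 and Gfap was left unnamed, and its 1441 cells stand outside the 1495 counted here. With that cluster placed by marker score, 8 members were again lower at day 7.

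In oligodendrocyte-like cells the immediate early sum was highest at day 3, with 1659, 1924, 2966, 1598 and 1441 CPM. At day 1, 3 of 30 measured members were at least 2-fold higher (6.68% of all genes) and 4 lower (4.95% of all genes). At day 3, 6 were higher (10.1% of all genes) and 9 lower (14.3% of all genes), or 8 and 7 after centring on the median of all genes. At day 7, 0 of 29 were higher (5.17% of all genes) and 7 lower (5.52% of all genes), and at day 14 0 were higher (4.04% of all genes) and 13 lower (3.68% of all genes). Of the 13, 10 were immediate early genes and 3 inducible heat shock genes. Btg1 had 66.9, 149, 402, 83.9 and 44.0 CPM and Hspb1 6.33, 54.0, 61.8, 4.43 and 3.28 CPM, both highest at day 3. Hspa1a had 188, 35.3, 20.3, 17.4 and 6.83 CPM, Hspa1b 156, 25.6, 21.1, 10.8 and 13.9 CPM, and Klf2 45.2, 10.2, 24.9, 19.1 and 4.38 CPM. These 3 had the lowest day 14 log2 ratios of the class, -4.79 (-5.07 to -4.51), -3.48 (-3.71 to -3.25) and -3.37 (-3.80 to -2.94). At the other end Jund had 508, 458, 814, 558 and 746 CPM, Klf6 53.4, 77.7, 120.6, 77.2 and 75.5 CPM, and Bag3 21.3, 29.2, 27.1, 24.6 and 30.5 CPM, with day 14 ratios of 0.55, 0.50 and 0.52. The abundant chaperones, at 6544, 4356, 2594, 4546 and 5851 CPM, were lowest at day 3 and near sham at day 14. The microglia gauge was 2.52%, 1.55%, 3.57%, 5.26% and 2.83%, highest at day 7, and its part in these values was not tested. The part of RNA freed from other classes, such as astrocyte-like cells, was not tested either.

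The smaller classes gave further values. In neural progenitor or neuroblast-like cells 5, 11, 11 and 18 members were at least 2-fold lower at days 1, 3, 7 and 14, of 31, 31, 30 and 30 measured, against 6.44%, 12.4%, 7.97% and 7.84% of all genes. Their immediate early sum was 9587, 10917, 6608, 5362 and 3564 CPM. In endothelial-like cells 4, 8, 8 and 12 were lower, of 30, 29, 29 and 29, against 14%, 20.5%, 10.3% and 17.3% of all genes. Endothelial immediate early genes summed to 9752, 9660, 9996, 10920 and 6806 CPM, so the summed level was about that of sham through day 7. Inducible heat shock genes of that class summed to 3968, 2397, 894, 2006 and 892 CPM. In sham the microglia gauge was higher in endothelial-like cells than in astrocyte-like, oligodendrocyte-like or progenitor cells. What part freed RNA had in the endothelial sums was not tested. Endothelial-like cells numbered 64 to 83 outside day 7, which limits the single genes.

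Some members were lower than sham, by any amount, in every class compared. At day 1, 6 of 29 were lower in all 5 classes (12.5% of all genes): Klf2, Btg2, Hspa1a, Hspa1b, Dnajb1 and Hspa8. At day 3, 5 of 21 were lower in all 6 classes (13.3% of all genes), and at day 14 6 of 21 were (9.97% of all genes). At day 7, 13 of 21 were (15.6% of all genes). Hspa1a, Hspa1b and Dnajb1 were on the list at all 4 days. Their sham astrocyte-like levels were 4.93%, 3.34% and 6.60% of the microglia/macrophage ones, against 3.39% for the summed microglia gauge genes. What part freed RNA had in this shared direction was not tested. In progenitors the Hspa1a log2 ratio was -2.42, -3.16, -3.04 and -5.33, and in endothelial-like cells -1.39, -3.26, -1.21 and -2.98, at days 1, 3, 7 and 14. At these days it was -1.91, -3.85, -3.90 and -6.16 in microglia/macrophages. With cells of at least 1000 UMIs the day 14 count was 19. That setting left too few sham endothelial-like and oligodendrocyte precursor-like cells, so fewer classes were compared. The 19 is therefore not directly comparable with the day 14 count over all 6 classes.

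Single cells were compared after thinning each to 500 UMIs, which left out 0 cells. Sham microglia/macrophages held a mean of 16.96 immediate early UMIs and a median of 16, and 0.356% (0.204 to 0.578) of cells had 0. The medians at days 1, 3, 7 and 14 were 9, 9, 5 and 4, and the cells at 0 were 2.67%, 1.58%, 10.2% and 9.95%. In sham 80.6% of microglia/macrophages held 10 or more, against 16.0% at day 14 and 0.456% of sham astrocyte-like cells, of which 53.0% had 0. For the 6 inducible heat shock genes the share of cells at 0 was 22.1% (20.9 to 23.3), 55.6%, 84.5%, 83.7% and 93.1% from sham to day 14. Hspa1a alone was seen in 55.4% of thinned sham cells (64.8% unthinned, median 726 UMIs) and in 2.22% at day 14 (15.7% unthinned, median 10547 UMIs). In sham astrocyte-like cells (median 684 UMIs) it was seen in 5.42% of thinned and 8.03% of unthinned cells. Among sham microglia/macrophages, cells with 0 inducible heat shock UMIs had a mean of 15.5 immediate early UMIs and cells with 5 or more had 19.3. Across cells of a library Spearman's rho between the sums was 0.19, 0.20, 0.10, 0.24 and 0.13 from sham to day 14. All counts of a cell come from the same 500 UMIs, and these sparse values are a description only.

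**Figure D5:**
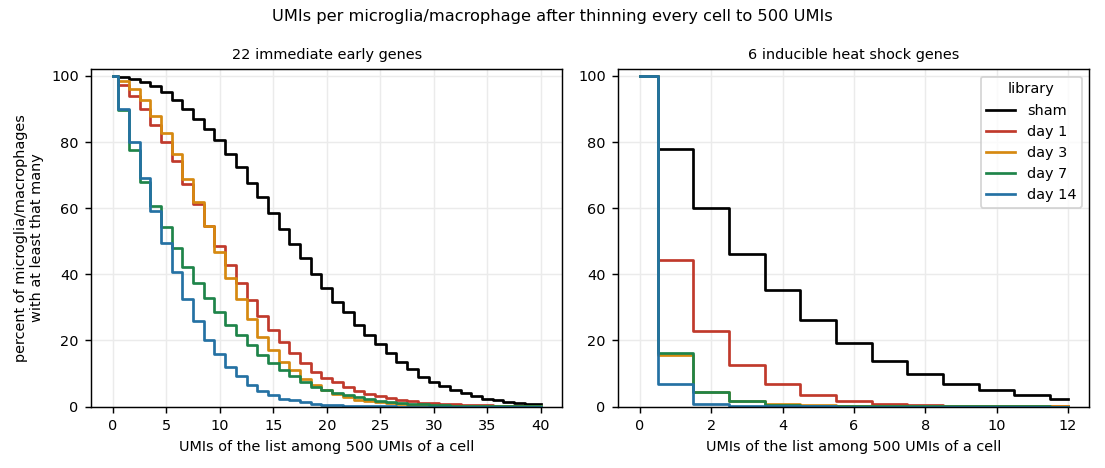
Percent of microglia/macrophages (y axis) with at least the number of UMIs on the x axis among 500 UMIs of a cell, for 22 immediate early genes (left) and 6 inducible heat shock genes (right), 1 line per library. The sham line lies to the right of the 4 injured ones, with a median of 16 immediate early UMIs per cell against 4 to 9.

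Libraries were also compared in cells of similar total. Within microglia/macrophages of 1000 to below 2000 UMIs (739, 2172, 205, 154 and 67 cells) the immediate early sum was 35102, 20683, 24521, 7302 and 13466 CPM, and the inducible heat shock sum 6025, 1954, 856, 417 and 457 CPM. Sham was the highest library in this range for both, while the order of the injured libraries differed from that over all cells. The class median was 726 UMIs in sham and 10547 at day 14, so the range lay above the median in sham and far below it at day 14. Cells alike in total may thus differ in other ways, which was not tested. Microglia-like cells alone had immediate early sums of 34470.3, 20982, 18643, 13849 and 8345 CPM, as large a difference as in the whole class. Monocyte/macrophage-like cells, which numbered 22 in sham, had 19558, 14832, 13266 and 9881 CPM at days 1, 3, 7 and 14. Other genes differed beside these results in microglia/macrophages. P2ry12 had log2 ratios of -2.94, -2.96, -1.75 and -3.04 and Tmem119 of -1.58, -2.67, -1.99 and -2.63, while C1qa had 0.19, 0.16, 0.72 and 0.94. The astrocyte glutamate transporter Slc1a2 was lower there too at day 14, with a log2 ratio of -5.11. Their part in the results was not tested.

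The wider families were taken from 3 further lists. Over all genes in microglia/macrophages, 10.2%, 24.4%, 15.1% and 26.2% were at least 2-fold lower at days 1, 3, 7 and 14, and 7.9%, 10%, 5.05% and 6.7% higher. Of 27 other immediate early genes, 0, 2, 5 and 12 were lower there, of 19, 20, 17 and 17 measured, and 8, 8, 4 and 1 were higher. The highest day 14 ratio was 1.88 for Pim1, a survival kinase induced by cytokines. Of 28 other chaperone and heat shock genes 4, 9, 8 and 12 were lower, of 26, 25, 26 and 25 measured. Of 12 NF-kB early response genes 0, 1, 3 and 8 were lower and 2, 4, 1 and 0 higher, of 11, 12, 11 and 11. At day 14 Il1a had the lowest ratio of all 3 lists, -2.88, followed by Dnaja4 (-2.75) and Csrnp1 (-2.58), and Cxcl2, at 0.68, and the chaperonin subunit Cct2, at 0.26, were next to Pim1 at the top. Of the other immediate early genes, 18 of 21 measured in astrocyte-like cells were at least 2-fold higher at day 1 (12.7% of all genes). The growth arrest gene Gadd45b was among them (6.31, from 20 sham UMIs). At day 3, 10 of 15 of the same list were higher (9.68% of all genes). In oligodendrocyte-like cells 13 of 17 other immediate early genes were higher at day 1 (6.68% of all genes). At day 3, 15 of 18 were higher (10.1% of all genes), with the kinase Sgk1 at 5.24 (from 129 sham UMIs).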

How the data were processed

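Single-cell libraries of mouse cortex, 1 for each of 5 groups, were deposited as UMI counts. The authors used Cell Ranger 4.0.0 for these counts, per the file headers. The builds mm10 and GRCm38 are listed in the submitters' processing notes, as are Seurat 3.2.0 and STAR 2.5.37. Barcodes with at least 500 UMIs, 200 genes and at most 20% mitochondrial UMIs were kept and doublets removed with Scrublet (scanpy 1.11.5), which marked 3.67% to 9.79%. At day 7, 12.7% of barcodes exceeded the mitochondrial limit. Of the libraries, sham held 11279455 UMIs in all and day 14 129161094.

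Clustering used 2000 variable genes without the members, 30 principal components, 15 neighbours and Leiden resolution 1. Clusters were named by at least 3 markers, and 1 of 34 stayed unnamed, led by astrocyte genes at few UMIs, which held 1441 day 7 cells. Names stand for likeness to markers.

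Counts were summed per class and library and scaled to CPM. A gene was measured at a mean of at least 10 CPM and 5 expected UMIs. Classes needed 50 cells in both libraries. Intervals are exact Poisson, conditional binomial or Clopper-Pearson at 95%. Calls are 2-fold. TMM came from edgeR 4.0.16, as a scale only, with no count test. Scripts were tested on simulated data. Members, lists and markers were chosen with earlier results of these data known. Members with values in every library were, in each group, the 3 with the highest mean sham CPM over classes and, in 3 classes, the 3 lowest and 3 highest day 14 ratios; of the 3 further lists, the 3 lowest and 3 highest in microglia/macrophages; any other name was chosen after its values were seen. Other genes overlap 12 members in GENCODE on GRCm38. The overlaps of Jun, Junb and Jund lie on the other strand and those of Dusp1 on both strands. Whether counting used strand is not given, so reads of overlapping genes may be shared. The alternatives numbered 18, of which 2 (cells of 1000 to below 2000 UMIs, and the unnamed cluster placed by marker score) were added after seeing the data.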

Additional observations from a re-analysis of the deposited data

Results flagged for a closer look

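Some members were at least 2-fold lower in microglia/macrophages and at least 2-fold higher in another class at the same day. The differences between classes were not tested, since each group is 1 library. At day 1 Jun had a log2 ratio to sham of -1.04 in microglia/macrophages and 2.27 in astrocyte-like cells, and Hsph1 had -1.21 and 1.25. Hspb1 at day 1 had -1.02, 6.21 and, in oligodendrocyte-like cells, 3.09. At day 3 Hspb1 had -2.83, 5.64 and 3.29 in the same order. What part RNA freed from astrocyte-like cells had in the oligodendrocyte-like values of Hspb1 was not tested. Fos at day 3 had -1.24 in microglia/macrophages and 1.27 in oligodendrocyte-like cells, and Egr1 had -1.71 and 1.01. At day 14 the pairs for microglia/macrophages and astrocyte-like cells were -2.31 and 1.22 for Jund, -6.81 and 2.95 for Hspb1, -2.31 and 1.66 for Bag3 and -3.42 and 1.62 for Hsp90aa1. Hspb1 thus stood apart in this way at days 1, 3 and 14. Its microglia/macrophage level was 1.98 CPM at day 14 and its astrocyte-like level 116.9 CPM.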

How the results depend on the processing

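No paired analysis was possible because each group is 1 library. Of 302 counts of members under 18 alternatives, 260 stayed within 1.5 times of the reported ones. Members lower in microglia/macrophages ranged over 9 to 21, 17 to 27, 20 to 32 and 24 to 33 at days 1, 3, 7 and 14. A 1.5-fold call gave 21 there at day 1, 9 in astrocyte-like cells at day 14, and 9 and 12 in oligodendrocyte-like cells at days 1 and 7. TMM gave 17 in microglia/macrophages at day 3. Members lower in astrocyte-like cells at days 3, 7 and 14 became 15, 17 and 17 with doublets kept, and 1, 2 and 1 at a mean of 50 CPM or more. Days 7 and 14 gave 14 and 12 with at least 1000 UMIs, day 7 gave 5 at no more than 10% mitochondrial UMIs, and day 14 gave 1 after thinning. In oligodendrocyte-like cells the 50 CPM filter gave 4 at day 7 and 4 at day 14, and cells of 1000 to below 2000 UMIs gave 7 at day 14. Members lower in every class were 3, 2 and 2 at days 1, 3 and 14 under the 50 CPM filter. They were 9 and 19 at days 3 and 14 with at least 1000 UMIs. In cells of 1000 to below 2000 UMIs they were 12, 33 and 13 at days 3, 7 and 14. Both UMI settings leave under 50 sham endothelial-like and precursor-like cells, so fewer classes were compared at every day. In the narrower range astrocyte-like cells were also missing at days 7 and 14 and oligodendrocyte-like cells at day 7. The 33 at day 7 therefore does not show a direction shared across the main classes. Thinning gave 1, 5 and 2 at days 3, 7 and 14, and keeping the members among the variable genes gave 3 at days 3 and 14. Day 14 gave 16 with doublets kept, 17 with classes by marker score, 12 with the mean of per-cell CPM and 11 with no filter. Members present in every sham class were 6 with at least 1000 UMIs, with doublets kept or in cells of 1000 to below 2000 UMIs. Both UMI settings again left out the sham endothelial-like and precursor-like classes. The count was 4 under TMM, centring or marker score, and 1 with the members among the variable genes. Of 1591 day 14 log2 ratios of single members under alternatives, 68 had the other sign. Of 2017 other values, 490 moved, and 1 that was at least 2-fold lower changed sign: Atf3 at day 14 in oligodendrocyte-like cells, 2.35 in cells of 1000 to below 2000 UMIs. The cause of these shifts was not tested. Sham depth limits low members most. Cells of 1000 to below 2000 UMIs gave no value for astrocyte-like cells at days 7 and 14 or oligodendrocyte-like cells at day 7.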
